A study of Mus musculus with 4 samples.

Results

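Stefin-high leukaemia cells are those cells of 2 mouse MLL-AF9 leukaemias in which the stefin A genes Stfa1, Stfa2, Stfa3, Stfa2l1, Cstdc4 and Cstdc5 together gave at least 1% of a cell's unique molecular identifiers (UMIs, the counts of captured mRNA molecules). They numbered 2261 of 24955 leukaemia cells that passed the cell filters, 818 of 11778 cells in the KO MLL-AF9 library and 1443 of 13177 cells in the WT MLL-AF9 library. KO MLL-AF9 is an Rbm5 knockout and WT MLL-AF9 an Rbm5 wild-type primary leukaemia driven by the fusion of MLL and AF9, both taken from the bone marrow of mice at the same endpoint after a first transplantation. Rbm5 encodes a nuclear RNA-binding protein and splicing regulator, and the study asked whether it controls the self-renewal programme of MLL-fusion leukaemia. A KO c-Kit+ and a WT c-Kit+ library of non-leukaemic marrow cells belong to the same series. Each group was 1 droplet library, so there is no replicate and no test, and every difference between KO and WT cannot be told apart from a difference between 2 libraries. The intervals given are 95% intervals that cover counting error only. Strain, age, sex, the number of mice, the way Rbm5 was deleted, any sorting of the leukaemia cells and the share of host cells were not given in the sources used here.

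Stefins, or type 1 cystatins, are small cytosolic proteins that bind and block papain-like cysteine proteases, the cathepsins. Humans have a single stefin A gene, whereas the mouse genome holds a cluster of related copies, and these are known as abundant transcripts of developing neutrophils. Neutrophil precursors make their granules in order: primary (azurophil) granules with Mpo, Elane and Ctsg at the promyelocyte stage, then secondary and tertiary granules with Camp, Ltf, Ngp and Mmp8 as proliferation ends. In MLL-AF9 leukaemia the fusion protein keeps Hoxa9, Meis1, Pbx3 and Mecom active in cells that would otherwise lose them on the way to granulocytes.

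The 6 genes lie within 298582 bases of chromosome 16 (GRCm38, positions 36156811 to 36455392), and 5 further genes of the stefin A cluster lie among or beside them. Their promoters are shown because the copies resemble one another also before the transcript starts. Over the 250 bases before and 50 bases after each RefSeq start (GRCm38.p6), 4 runs of at least 10 bases were common to all 6 windows. Of these 3 begin before the start in every gene, and the stretch that holds the 2 of them nearest the start is printed 5′ to 3′ on the strand of the gene, with both runs in capitals. 
Stfa1: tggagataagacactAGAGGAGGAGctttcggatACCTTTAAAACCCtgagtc
Stfa2: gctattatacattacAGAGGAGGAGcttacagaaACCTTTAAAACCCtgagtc
Stfa3: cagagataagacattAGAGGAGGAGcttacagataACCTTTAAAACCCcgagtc
Stfa2l1: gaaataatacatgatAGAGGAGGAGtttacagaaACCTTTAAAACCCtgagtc
Cstdc4: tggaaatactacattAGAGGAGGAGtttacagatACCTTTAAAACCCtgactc
Cstdc5: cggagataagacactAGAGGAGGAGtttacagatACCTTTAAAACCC

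In chromosome coordinates these stretches are chr16:36277081-36277133 for Stfa1 (plus strand), chr16:36408377-36408429 for Stfa2 (minus strand) and chr16:36455408-36455461 for Stfa3 (minus strand). Stfa2l1 has chr16:36156741-36156793 (plus strand), Cstdc4 chr16:36184146-36184198 (plus strand) and Cstdc5 chr16:36367570-36367616 (minus strand). The run ACCTTTAAAACCC begins between 32 and 36 bases before the annotated start in 5 of the 6 genes, and 12 bases before it in Cstdc5. Searched on both strands, it was found in 9 of 32851 RefSeq promoters of the same length (0.0274%), and all 9 lie in this cluster on chromosome 16, the other 3 being those of Csta3, Cstdc3 and Gm7260. The purine run AGAGGAGGAG was found in 337 of the 32851 promoters (1.03%). Csta2, a further gene of the cluster, has neither run in the window of its annotated start.

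Across the 4 libraries, between 12762 and 14577 barcodes were deposited, and between 11778 and 13708 cells passed the filters. Stefin-high cells had a median of 8857.5 UMIs in KO MLL-AF9 and 7170 in WT MLL-AF9, against 7334.5 and 5794.5 UMIs in the other cells of the KO and WT library. They were thus the deeper cells of both libraries, and the KO library was the deeper of the 2. Scrublet called 5.38% of KO and 5.89% of WT stefin-high cells doublets, against 3.36% of other KO cells and 3.15% of other WT cells. The KO and WT leukaemia files shared 54 barcodes, 0 of them between the stefin-high cells of the 2 libraries. Rbm5 itself had 134 CPM in KO and 155 CPM in WT stefin-high cells, a ratio of 0.867 (0.802 to 0.937). CPM are UMIs scaled to a total of 1000000, here always without the 6 stefin genes in the sum. With median-ratio size factors in place of CPM the log2 ratio of Rbm5 was 0.07, against -0.20 with CPM. The labels do not say which part of Rbm5 was removed, so these counts do not check the KO label.

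Stefin-high cells made up 6.95% (exact binomial interval 6.49 to 7.42%) of the KO library and 10.95% (10.4 to 11.5%) of the WT library, a ratio of 0.634 (0.581 to 0.691). The 6 genes gave 0.290% of all UMIs in KO and 0.557% in WT leukaemia, a ratio of 0.521 (0.519 to 0.524). Within the stefin-high cells the 6 genes gave 3.13% of UMIs in KO and 4.10% in WT, with medians per cell of 2.79% and 3.81% and highest single cells of 13.6% and 16.2%. Both the share of such cells and the stefin content of each were thus lower in the KO library. In the other cells the 6 genes gave 0.0463% of UMIs in KO and 0.0572% in WT, and 43.5% of all KO and 26.7% of all WT cells had no stefin UMI at all. These values come from the genes that chose the cells and are given as a description.

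**Figure D1:**
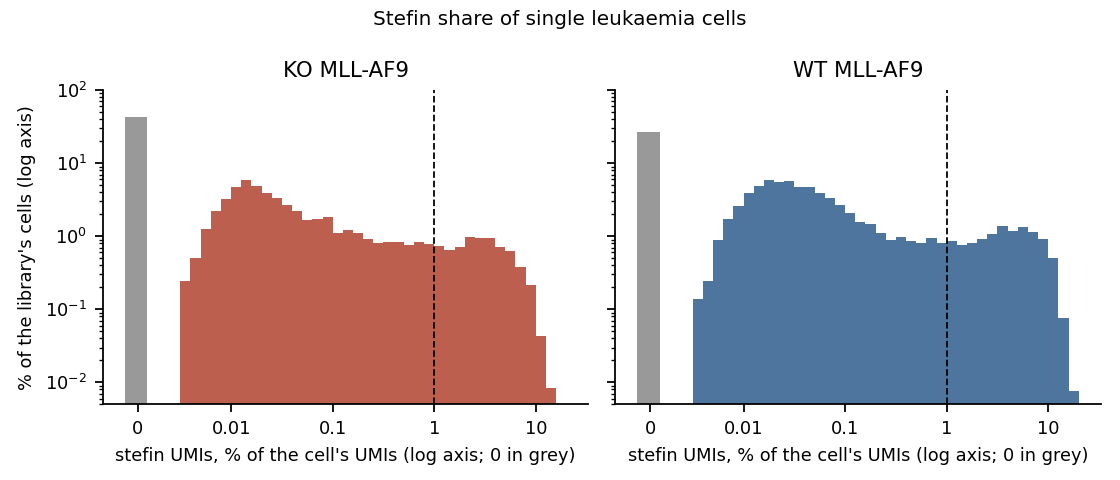
Share of stefin UMIs per cell (x axis, percent of the cell's UMIs, log axis, cells without a stefin UMI as the grey bar at 0) against the percent of the library's cells (y axis, log axis) in KO MLL-AF9 (left) and WT MLL-AF9 (right); the dashed line is the 1% threshold. In both libraries most cells lie below 0.1%, and a second rise lies above the line, with 6.95% of KO and 10.95% of WT cells beyond it.

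The threshold did not fall into an empty stretch. In KO 51 cells had a stefin share between 0.9 and 1% and 35 cells one between 1 and 1.1%, and in WT these numbers were 49 and 48. Just inside the threshold Camp had 20116 CPM in KO and 11873 CPM in WT, and just outside it 19685 CPM in KO and 14135 CPM in WT. Pbx3 had 624 CPM in KO and 989 CPM in WT just inside, and 784 CPM in KO and 1060 CPM in WT just outside. Elane had 897 CPM in KO and 2584 CPM in WT just inside, and 1764 CPM in KO and 2230 CPM in WT just outside, and Pcdh7 141 CPM in KO and 84.4 CPM in WT just inside, and 82.7 CPM in KO and 281 CPM in WT just outside. These groups are small, and genes differed in how far they moved across the line.

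Stfa1 and Cstdc5 were the leading genes of the stefin-high cells. Stfa1 gave 35.1% of the stefin UMIs of KO and 32.1% of those of WT stefin-high cells, Cstdc5 gave 26.6% and 32.3%, Cstdc4 15.3% and 19.9%, Stfa2l1 10.5% and 6.06%, Stfa2 10.2% and 7.08%, and Stfa3 2.34% and 2.52%. UMIs of all 6 genes were found in 46.9% of KO and 35.8% of WT stefin-high cells, and UMIs of 5 or 6 genes in 86.2% of KO and 66.5% of WT. At least 1 UMI of Stfa1 was also found in 23.8% of other KO and 36.3% of other WT cells, so a UMI of a copy does not show that it carried the cell past the threshold. As a share of all UMIs, Cstdc4 was lower in KO than in WT stefin-high cells by a ratio of 0.583 (0.577 to 0.590) and Cstdc5 by 0.628 (0.622 to 0.634), while Stfa2l1 was higher by 1.33 (1.3 to 1.35). Within 60-base windows of their transcripts Stfa1, Cstdc5 and Cstdc6 share sequence, as do Stfa2 with Stfa2l1 and Cstdc4 with Csta2. The split between these copies is uncertain, since the counting could divide or drop shared reads, and the sum over the 6 genes is touched less.

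Spearman's rho between the 6 genes, on shares of UMIs across the stefin-high cells of 1 library, is given as a description only, since the sum of these genes chose the cells and shapes the values. It lay between 0.01 (Stfa1 and Stfa3) and 0.57 (Stfa2l1 and Cstdc4) among 818 KO cells. Among 1443 WT cells it lay between -0.01 (Stfa1 and Stfa3) and 0.68 (Stfa1 and Cstdc4).

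Genes of the same cluster that the rule did not use were also far higher in stefin-high cells. Csta2 had 236 CPM in stefin-high and 9.87 CPM in other KO cells, and 91.2 CPM in stefin-high and 4.65 CPM in other WT cells. Csta3 had 83.1 and 1.16 CPM in KO, and 76.1 and 0.884 CPM in WT. Cstdc6 had 67.5 and 1.46 CPM in KO, and 17.9 and 0.405 CPM in WT. Summed over the 5 genes, the level was 399 CPM in stefin-high and 13.1 CPM in other KO cells, and 187 CPM in stefin-high and 5.95 CPM in other WT cells. Cstdc6 and Csta2 share sequence with genes of the rule, and Csta3 shared no 60-base window with another copy. Outside the cluster, Fam162a, a mitochondrial protein gene, lies before Stfa2l1 (chr16:36043761-36071594, GRCm38, minus strand). It had 152 CPM in stefin-high and 28.4 CPM in other KO cells (ratio 5.33, 4.97 to 5.71), and 140 CPM in stefin-high and 49.6 CPM in other WT cells (ratio 2.82, 2.66 to 2.99). The other 13 measured genes within 1 Mb of the cluster were not 2-fold higher, with log2 ratios between -0.63 and 0.37 in KO and between -1.59 and 0.31 in WT. Fam162a was thus the exception among the neighbours, and its rise was seen in both libraries.

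Against the other cells, 110 of 9336 genes (1.18%) were 2-fold or more higher and 335 (3.59%) 2-fold or more lower in KO stefin-high cells. Genes below a mean of 5 CPM were left out, and ratios were taken with 1 CPM added. In WT 75 of 9939 genes (0.755%) were higher and 496 (4.99%) lower. Of 8989 genes measured in both libraries, 33 were 2-fold higher and 225 2-fold lower in both. Within that set, the 33 were 38.4% of 86 higher genes of KO and 47.1% of 70 higher genes of WT, and the 225 were 79.8% of 282 lower genes of KO and 60.5% of 372 lower genes of WT. The median log2 ratio over all genes was -0.01 in KO and -0.13 in WT.

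Outside the stefin A cluster, and among genes that averaged 50 CPM or more in each library, Penk, the proenkephalin precursor of opioid peptides, had the highest smaller ratio of the 2 libraries. It had 343 CPM in stefin-high and 121 CPM in other KO cells (ratio 2.84, 2.72 to 2.96), and 276 CPM in stefin-high and 92.0 CPM in other WT cells (ratio 3.0, 2.87 to 3.13). Olfm4, a glycoprotein of specific granules that marks a subset of neutrophils, had 1831 and 698 CPM in KO (ratio 2.62, 2.58 to 2.67), and 1688 and 393 CPM in WT (ratio 4.29, 4.21 to 4.37). Thbs1, the matrix glycoprotein thrombospondin 1, had 1067 and 351 CPM in KO, and 148 and 57.8 CPM in WT. The stefin-high cells of both libraries exceeded the other cells in these genes, while the level of Thbs1 in the KO library was above that of WT in both kinds of cell. Further genes of this rank were Tinagl1, Ipcef1, Mapk13, Samd9l, Ly75, Itgal, Olfml2b and Slc31a2. It also held C5ar1, the receptor of complement fragment C5a, the collagenase gene Mmp8 and Anxa1, the annexin that restrains neutrophil recruitment, with log2 ratios of 0.94, 0.90 and 0.82 in KO and 1.23, 1.11 and 1.1 in WT.

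**Figure D2:**
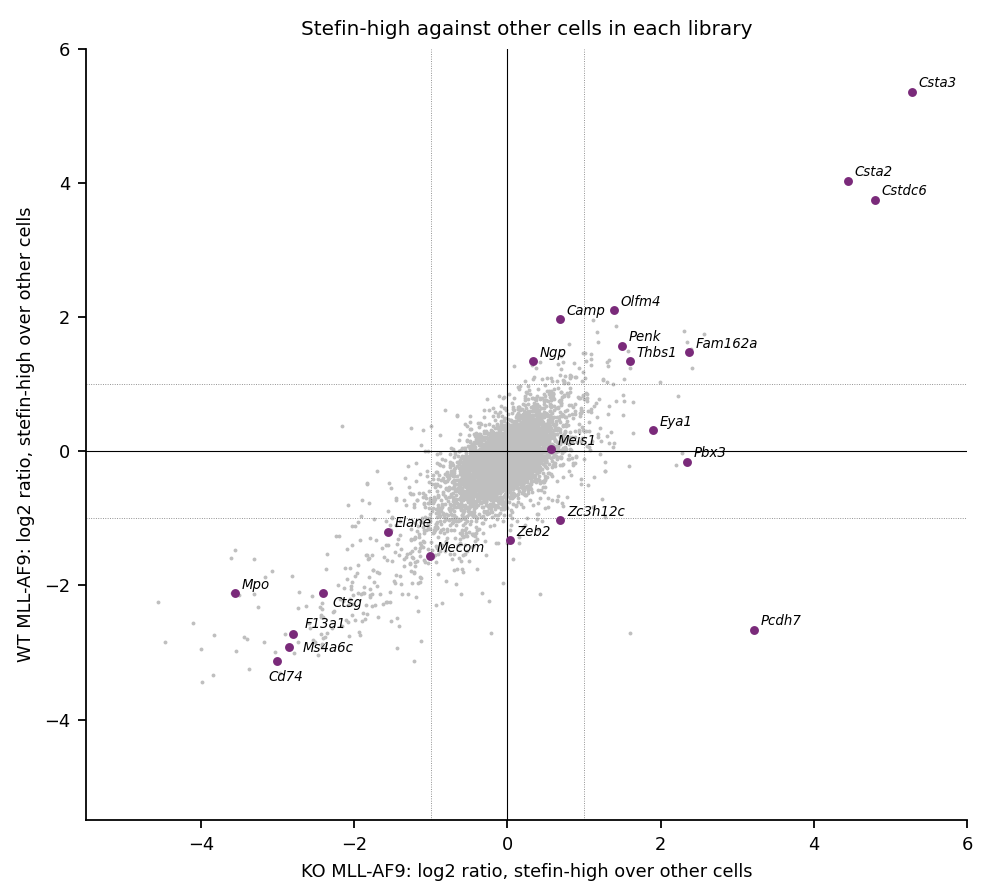
Log2 ratio of CPM, stefin-high over other cells, of each gene that averaged at least 5 CPM in both libraries, in KO MLL-AF9 (x axis) and WT MLL-AF9 (y axis); the 6 genes of the rule are left out, named genes are purple and dotted lines mark 2-fold. Genes of the stefin A cluster lie far up on the diagonal, monocyte, class II and primary granule genes far down, and Pbx3, Eya1 and Pcdh7 lie to the right of it.

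Secondary and tertiary granule genes mostly had ratios above 1 in stefin-high cells, larger in WT than in KO. Of 22 genes measured in KO 16 were higher, 1 of them 2-fold against 1.18% of all genes, with a median log2 ratio of 0.34. Of 21 in WT 19 were higher, 8 of them 2-fold against 0.755% of all genes, with a median of 0.83. Camp, the cathelicidin, had 24403 CPM in stefin-high and 15166 CPM in other KO cells (ratio 1.61, 1.60 to 1.62), and 22015 CPM in stefin-high and 5618 CPM in other WT cells (ratio 3.92, 3.90 to 3.94). Ngp, neutrophilic granule protein, had 17790 and 14062 CPM in KO, and 11335 and 4467 CPM in WT, and lactoferrin (Ltf) 1481 and 1177 CPM in KO, and 1020 and 482 CPM in WT. Stefin-high cells of KO and WT were close in Camp, and the other cells of the libraries were not. Ceacam10, Cd177, Padi4, Hp, Lyz2 and Orm1 had log2 ratios between -0.81 and -0.03 in KO. Genes of the late neutrophil went both ways. In KO 8 of 20 were higher and 12 lower, with a median log2 ratio of -0.11. In WT 13 of 19 were higher and 6 lower, with a median of 0.39. Retnlg, a secreted protein of mature neutrophils, had 366 and 402 CPM in KO, and 277 and 211 CPM in WT, and the chemokine receptor gene Cxcr2 51.1 and 38.9 CPM in KO, and 55.5 and 33.6 CPM in WT. The 6 NADPH oxidase genes, which serve the oxidative burst, had log2 ratios above 0 in both libraries, with medians of 0.34 in KO and 0.42 in WT and 0 of 6 past 2-fold. Cebpe, the factor required for secondary granules, had 427 and 255 CPM in KO, and 406 and 226 CPM in WT. Most of the 16 listed myeloid transcription factor genes did not rise. In KO 4 were higher and 12 lower, with a median log2 ratio of -0.18, and in WT 7 were higher and 9 lower, with -0.04.

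Primary granule genes were lower. Of 10 genes 8 were lower in KO and 9 in WT, 5 of them 2-fold in each library, with medians of -0.96 and -0.89, against 3.59% of all genes 2-fold lower in KO and 4.99% in WT. Myeloperoxidase (Mpo) had 21.1 CPM in stefin-high and 258 CPM in other KO cells (ratio 0.0818, 0.0697 to 0.0953), and 50.7 CPM in stefin-high and 224 CPM in other WT cells (ratio 0.227, 0.208 to 0.247). Cathepsin G (Ctsg), a serine protease in spite of its name, had 112 and 598 CPM in KO, and 230.3 and 1001 CPM in WT. Neutrophil elastase (Elane) had 962 and 2839 CPM in KO, and 1463 and 3357 CPM in WT. All 3 were lower in both libraries, Elane the least. Cebpa, the factor of the granulocyte-monocyte progenitor, had 9.92 and 37.9 CPM in KO, and 9.35 and 29.2 CPM in WT.

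Monocyte and antigen presentation genes were lower still. Of 12 monocyte genes 8 were 2-fold lower in KO, with a median log2 ratio of -1.62, and of 11 in WT 8 were 2-fold lower, with a median of -1.82. The shares of all genes that were 2-fold lower were 3.59% in KO and 4.99% in WT. Summed over the 7 class II genes, the level was 53.7 CPM in stefin-high and 261 CPM in other KO cells, and 112 CPM in stefin-high and 755 CPM in other WT cells. Cd74, the invariant chain of class II molecules, had 12.1 CPM in stefin-high and 104 CPM in other KO cells (ratio 0.117, 0.0941 to 0.143), and 27.8 CPM in stefin-high and 250.2 CPM in other WT cells (ratio 0.111, 0.0988 to 0.124). Ms4a6c, F13a1, Ahnak, Fn1 and S100a10 had ratios between 0.133 and 0.2 in KO and between 0.128 and 0.157 in WT. The 10 erythroid genes summed to 1052 and 12382 CPM in KO, and 777 and 2472 CPM in WT. The 8 T and NK genes summed to 62.2 and 215 CPM in KO, and 130.0 and 356 CPM in WT, and the 6 B cell genes to 78.8 and 831 CPM in KO, and 100.1 and 426 CPM in WT. The other cells hold clusters led by class II genes, by erythroid genes and by T and NK genes. At most 2.78% of the cells of such a cluster were stefin-high, so the make-up of the other cells enters these ratios. The comparison was therefore repeated between stefin-high and other cells of the same cluster with equal weight per cluster, an alternative chosen after the data had been seen. The 2-fold higher genes then numbered 63 in KO and 35 in WT and the lower ones 77 in KO and 98 in WT. Cd74 had log2 ratios of 0.01 in KO and 0.00 in WT, against -3.0 and -3.13 over all cells, whereas Mpo had -2.66 in KO and -1.42 in WT, and Ctsg -2.0 in KO and -1.85 in WT. F13a1 had -1.52 in KO and -0.62 in WT, Ms4a6c -0.68 and -0.86, Ahnak -0.58 and -0.35, Fn1 -0.38 and -0.54, and S100a10 -0.27 and -0.74, each closer to 0 than over all cells. Penk had 1.19 in KO and 0.98 in WT, Fam162a 2.05 in KO and 1.51 in WT, and Olfm4 0.83 in KO and 1.36 in WT. Single clusters differed for Mpo and Ctsg. The Mpo ratio lay between 0.0581 and 1.15 in KO and between 0.125 and 7.02 in WT clusters. For Ctsg it lay between 0.172 and 0.534 in KO and between 0.151 and 0.986 in WT. The Mpo ratio of 7.02 (5.30 to 9.17) was that of WT cluster 2, with 24 stefin-high cells. For erythroid, T and NK and B cell genes the part of the clusters was not tested.

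Cathepsin and legumain genes mostly had ratios below 1. The list holds cysteine cathepsins, which stefins block, and also legumain, Ctsa, Ctsd and Ctse, which are proteases of other kinds. Of 11 cathepsin and legumain genes measured, 10 in KO and 11 in WT had log2 ratios below 0, 3 in KO and 4 in WT past 2-fold, with medians of -0.60 and -0.76. Over all genes 3.59% were 2-fold lower in KO and 4.99% in WT, with medians of -0.01 and -0.13. Cathepsin S (Ctss), the protease of class II antigen processing, had 17.8 and 98.3 CPM in KO, and 24.9 and 176 CPM in WT, and within clusters its log2 ratios were 0.15 in KO and -0.05 in WT. Legumain (Lgmn) had 1.93 and 10.9 CPM in KO, and 3.99 and 21 CPM in WT. Cathepsin B (Ctsb) had 209.6 and 279 CPM in KO, and 261 and 388 CPM in WT, and cathepsin D (Ctsd), an aspartic protease that stefins do not block, 154 and 170.2 CPM in KO, and 156 and 175 CPM in WT. The remaining stefin gene, Cstb, whose product is stefin B, had 105 and 110.2 CPM in KO, and 108 and 133 CPM in WT, and cystatin C (Cst3), the secreted inhibitor, 335 and 446 CPM in KO, and 339 and 574 CPM in WT. Stefin-high cells were thus high in the stefin A cluster but in neither of these other cystatins.

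A few genes of the MLL-fusion programme had unlike ratios in the libraries. Over the 22 listed genes the median log2 ratio of stefin-high over other cells was 0.31 in KO, with 3 of 19 measured genes 2-fold higher and 3 lower, and -0.14 in WT, with 1 of 21 higher and 5 lower. Of all genes 1.18% were 2-fold higher and 3.59% lower in KO, and 0.755% higher and 4.99% lower in WT. Pbx3, a homeobox cofactor that works with HOXA9 and MEIS1, had 972 CPM in stefin-high and 190.2 CPM in other KO cells (ratio 5.11, 4.97 to 5.25), and 910 CPM in stefin-high and 1013 CPM in other WT cells (ratio 0.898, 0.879 to 0.917). Stefin-high cells of both libraries and the other WT cells therefore had like levels, and the other KO cells stood apart with a low one. Eya1, a phosphatase and cofactor of homeobox factors, had 401 and 107 CPM in KO (ratio 3.77, 3.62 to 3.92), and 295 and 237 CPM in WT (ratio 1.25, 1.2 to 1.29). Hoxa5 had 91.8 and 37.2 CPM in KO, and 33.5 and 41.5 CPM in WT. Meis1 had 495 and 335 CPM in KO (ratio 1.48, 1.43 to 1.53), and 521 and 512 CPM in WT (ratio 1.02, 0.990 to 1.05), and Hoxa9 123 and 104 CPM in KO, and 180.0 and 174 CPM in WT. Over all cells both genes were thus no lower in stefin-high cells than in the other cells of the library. Within clusters the ratios went both ways. For Meis1 they lay between 0.830 and 1.41 in KO and between 0.869 and 1.27 in WT. For Hoxa9 they lay between 0.681 and 1.22 in KO and between 0.703 and 1.11 in WT. Mecom, a zinc finger factor of stem cells, was lower in stefin-high cells of both libraries, with 632 and 1272 CPM in KO (ratio 0.497, 0.483 to 0.511), and 352 and 1043 CPM in WT (ratio 0.338, 0.327 to 0.349). Igf2bp2, an RNA-binding protein, had 1.67 and 3.05 CPM in KO, and 76.3 and 19.0 CPM in WT. Mef2c had 1514 and 1150.1 CPM in KO, and 789 and 959 CPM in WT. Myc had 10.9 and 13.3 CPM in KO, and 24.7 and 26.0 CPM in WT.

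The Pbx3 pattern was also read in single cells thinned to 2000 UMIs each, which left out 7 stefin-high and 507 other KO cells, and 31 stefin-high and 1159 other WT cells. A Pbx3 UMI was then found in 63.6% (60.2 to 66.9%) of stefin-high and 13.3% (12.7 to 14.0%) of other KO cells, and in 69.3% (66.9 to 71.7%) of stefin-high and 65.3% (64.4 to 66.2%) of other WT cells. Without thinning the shares were 81.8% and 21.5% in KO, and 85.4% and 78.4% in WT. In the clusters led by T and NK genes, which should hold little Pbx3, the thinned shares were 3.2% in KO and 28.9% in WT, at unthinned median depths of 6025 and 4360 UMIs. The shares in stefin-high cells lay above these in both libraries, but that background was not small in WT. Read the other way, 3.15% of KO cells with no Pbx3 UMI were stefin-high, against 21% of those with 1 and 30.9% of those with 2 or more. In WT these shares were 10.5%, 13.6% and 11.9%. In KO the share thus rose with the Pbx3 count, and in WT it had no such step.

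**Figure D3:**
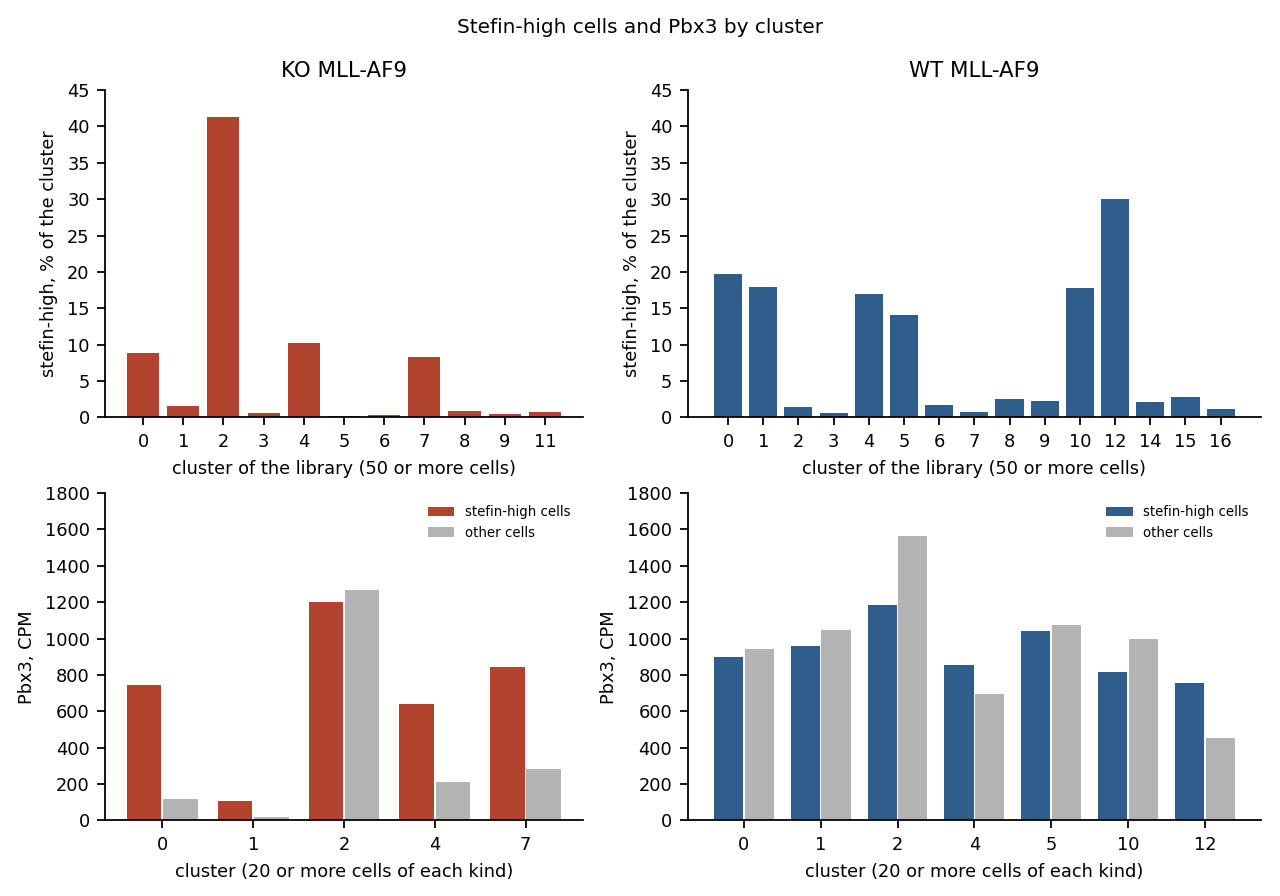
Upper row, percent of the cells of each cluster that were stefin-high in KO MLL-AF9 (left) and WT MLL-AF9 (right), for clusters of 50 or more cells; lower row, Pbx3 level in CPM of stefin-high cells (coloured) and other cells (grey) of the same cluster. In KO cluster 2 stands out with 41.3% stefin-high cells and a high Pbx3 level in both kinds of cell, whereas in WT stefin-high cells are spread over 6 clusters.

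Each library was also clustered on its own without the 6 stefin genes, though Csta2 and Csta3 of the same cluster were among the genes used in both libraries, and clusters are called here by number and leading genes. In KO 425 of the 818 stefin-high cells (52.0%) lay in cluster 2, led by Pcdh7, Pbx3, Csta2, Iftap, Eya1 and Snx7, of whose 1029 cells they made up 41.3%. A further 179 lay in cluster 0, led by Retnlg, Asprv1, Ankrd33b and Cxcr2, 107 in cluster 7, led by mitotic genes, and 52 in cluster 4, led by DNA replication genes. In WT the 6 clusters of 50 or more cells with 14.0% or more stefin-high cells were cluster 12, led by Ltf, Camp and Ngp, with 30%, cluster 0, led by Ceacam10, Mmp8 and Ltf, with 19.7%, and cluster 1, led by Cxcl2, Il1b and Jaml, with 17.9%. The others were cluster 10, led by Ung and Slfn9, with 17.8%, cluster 4, led by Elane, Vcam1 and Mpo, with 17.0%, and cluster 5, led by histone genes, with 14.0%. Clusters led by class II genes held 0.944% stefin-high cells in KO and 2.49% in WT, and those led by T and NK genes 0.714% and 2.78%. Stefin-high cells were thus found in resting and cycling clusters of both libraries. The cluster with most of them held 52.0% in KO and 19.96% in WT, but 43.2% in KO and 27.7% in WT at a Leiden resolution of 1.0, and 40.2% in WT at 0.3.

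Within KO clusters the Pbx3 difference persisted outside cluster 2. Stefin-high cells of cluster 0 had 746 CPM and its other cells 115 CPM (ratio 6.48, 5.88 to 7.15), those of cluster 4 had 639 and 210.2 CPM (ratio 3.04, 2.69 to 3.43), and those of cluster 7 had 846 and 284 CPM (ratio 2.98, 2.80 to 3.17). In cluster 2 they had 1203 and 1265 CPM (ratio 0.951, 0.917 to 0.986), so the other cells of that cluster were as high as its stefin-high cells. With equal weight per cluster the log2 ratio in KO was 0.90, against 2.35 over all cells. In WT the ratios within the 7 clusters with enough cells lay between 0.758 and 1.67. Pbx3, Eya1 and Pcdh7 were among the genes used to build the KO clusters, so their levels between clusters are no finding. Mecom was not, and its ratio lay between 0.354 and 0.871 in the 5 KO clusters and between 0.264 and 0.526 in the 7 WT clusters, below 1 in each.

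Levels also moved with the stefin share itself. From the lowest class of cells, under 0.1% stefin UMIs, over 0.1 to 0.5%, 0.5 to 1%, 1 to 2% and 2 to 5% to the class of 5% or more, Camp had 14822, 18048, 19567, 22588, 25149 and 25950 CPM in KO. In WT it had 5093, 8716, 12823, 14525, 20953 and 30307 CPM. Mecom had 1317, 876, 738, 692, 607 and 579.6 CPM in KO and 1077, 845, 553, 469, 330.0 and 283 CPM in WT over the same classes. Camp thus rose and Mecom fell at each step of both libraries. Pbx3 had 136, 679, 815, 928, 1039 and 843 CPM in KO, with the main step between the 2 lowest classes, and between 899 and 1016 CPM in every WT class. Pcdh7, a protocadherin, had 12.4 CPM in the lowest and 284 CPM in the highest KO class, but 417 CPM in the lowest and 19.6 CPM in the highest WT class. Elane had 164 CPM in KO and 444 CPM in WT at 5% or more, against 1693 and 2761 CPM at 1 to 2%. Mki67, a proliferation gene, had 54.5 CPM in KO and 162 CPM in WT at 5% or more, against 169 and 325 CPM at 2 to 5%.

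**Figure D4:**
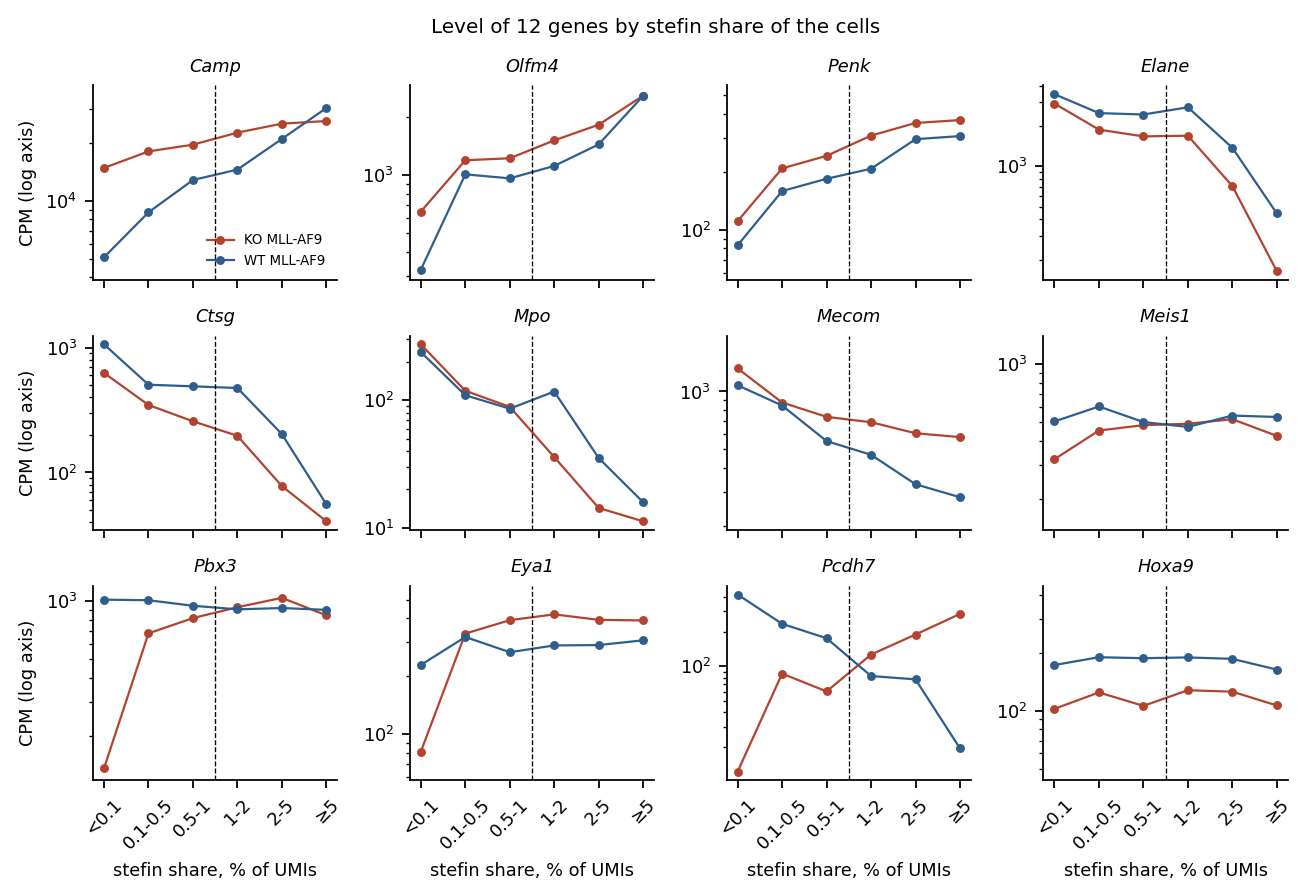
Level in CPM (y axis, log axis) of selected genes in cells grouped by their stefin share (x axis, percent of UMIs) in KO MLL-AF9 (red) and WT MLL-AF9 (blue), each point the summed UMIs of 1 class; the dashed line is the 1% threshold. Camp, Olfm4 and Penk are higher and Ctsg and Mecom lower at the right end in both libraries, while Pbx3, Eya1 and Pcdh7 differ between the libraries at the left end.

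KO and WT stefin-high cells were then compared with each other. Of 9509 genes 549 (5.77%) were 2-fold or more higher in KO and 864 (9.09%) lower, with a median log2 ratio of -0.26. With median-ratio size factors these numbers were 775 higher and 380 lower. In the other cells 551 of 9942 genes (5.54%) were higher and 1388 (14.0%) lower, with a median of -0.40. Immediate early genes led the higher genes. The 26 listed genes summed to 18129 CPM in KO and 1040 CPM in WT stefin-high cells, and to 20632 CPM in KO and 1107 CPM in WT other cells. Klf2, a Kruppel-like factor, had 6148 CPM in KO and 68.3 CPM in WT stefin-high cells (ratio 90.1, 83.8 to 96.9), and Fos 1272 CPM in KO and 22.1 CPM in WT (ratio 57.6, 50.8 to 65.7). Fosl1, Fosb, Egr1, Dusp1, Ppp1r15a, Cxcl2, Tnfaip6, Jun, Trib1 and Osm completed the 12 highest genes that averaged 50 CPM or more. In the other cells the log2 ratios were 6.04 for Klf2 and 5.36 for Fos, while the KO over WT ratio of Cxcl2 was 35.2 in stefin-high and 71.2 in other cells and that of Ppp1r15a 52.4 and 22.5. The libraries thus differed in these genes in both kinds of cell, and the time between harvest and capture was not given in the sources used here. The 16 inflammatory chemokine and cytokine genes summed to 2436 CPM in KO and 165.9 CPM in WT stefin-high cells, and to 2448 and 208.8 CPM in other cells.

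**Figure D5:**
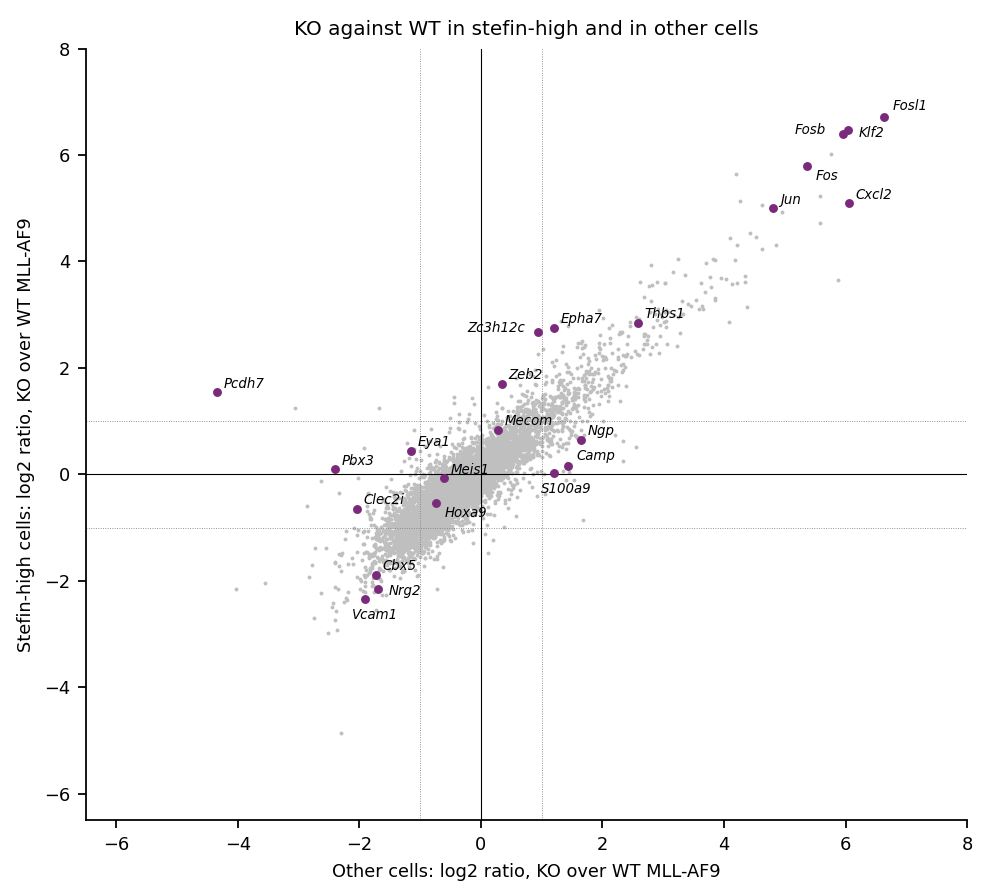
Log2 ratio of CPM, KO over WT MLL-AF9, in other cells (x axis) and in stefin-high cells (y axis), for genes that averaged at least 5 CPM in both comparisons; named genes are purple and dotted lines mark 2-fold. Immediate early genes lie at the upper right, Pcdh7, Pbx3 and Eya1 lie to the left and Camp, Ngp and S100a9 to the right of the diagonal.

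Among genes that averaged 50 CPM or more, the lowest in KO against WT stefin-high cells were Vcam1, Nrg2, Cbx5, Pde4d, Skida1, Rif1, Lockd, Hells, Stat5b, Pik3cd, H4c4 and Tshr. Vcam1, an adhesion molecule, had 33.9 CPM in KO and 176.6 CPM in WT stefin-high cells (ratio 0.192, 0.168 to 0.218), and Cbx5, heterochromatin protein 1 alpha, 40.2 and 151 CPM (ratio 0.266, 0.235 to 0.3). S phase genes, which replicate DNA, had log2 ratios below 0 in all 24 of 24 cases, 9 of them 2-fold, with a median of -0.94. Over all genes 9.09% were 2-fold lower in KO than in WT stefin-high cells, with a median of -0.26. Of 22 G2 and mitosis genes 20 were lower, 4 of them 2-fold, with a median of -0.61. In the other cells the medians of the S phase and of the G2 and mitosis list were -0.78 and -0.60. Against the other cells of their own library, stefin-high cells differed little in both lists, with medians of 0.08 in KO and 0.25 in WT for S phase and 0.02 and -0.02 for G2 and mitosis. Myb had 116 CPM in KO and 269 CPM in WT stefin-high cells, and Rbm6 and Rbm10, relatives of Rbm5, had ratios of 0.583 (0.533 to 0.638) and 0.607 (0.501 to 0.732).

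The KO over WT ratio itself differed 2-fold or more between stefin-high and other cells for 137 of 9335 genes, 104 (1.11%) higher in stefin-high cells and 33 (0.354%) lower. Pcdh7 had the highest difference of the genes ranked here. It had 182 CPM in stefin-high and 18.6 CPM in other KO cells (ratio 9.76, 9.09 to 10.5), but 61.8 CPM in stefin-high and 396 CPM in other WT cells (ratio 0.156, 0.145 to 0.169). Among genes that averaged 50 CPM or more in both comparisons, Pbx3 had the next highest difference, with log2 KO over WT ratios of 0.10 in stefin-high and -2.41 in other cells. Zc3h12c, an RNase that limits inflammatory transcripts, had 257 and 159 CPM in KO, and 39.6 and 81.9 CPM in WT, and Epha7, an ephrin receptor, 761 and 459.8 CPM in KO, and 112 and 199 CPM in WT. Zeb2, a zinc finger repressor, had 753 and 735 CPM in KO, and 230.3 and 578 CPM in WT. Eya1, Clec2i, Hspa2, Hspa1b and Pde7b completed the 10 of them with the highest difference. Among the 10 lowest at that level were Camp, S100a9, Skida1, Ngp, Neat1, Chil1, Cxcl2, Wfdc21 and Fcnb. S100a9, the calprotectin subunit, had 48765 CPM in stefin-high and 45702 CPM in other KO cells, and 47727 CPM in stefin-high and 19805 CPM in other WT cells. For Camp, Ngp and S100a9 the stefin-high cells of the libraries were the closer pair.

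Cells past the same threshold were rare in the non-leukaemic libraries, 26 of 13708 KO c-Kit+ cells (0.190%, 0.124 to 0.278%) and 33 of 12948 WT c-Kit+ cells (0.255%, 0.176 to 0.358%). They were shallow cells, with medians of 2087.5 and 2165 UMIs, and of another make-up. Cstdc4 led the stefin UMIs in 53.8% of them in KO and 69.7% in WT, against 4.03% of KO and 9.29% of WT stefin-high leukaemia cells. Retnlg reached 29094 CPM in KO and 39589 CPM in WT c-Kit+ stefin-high cells, against 366 CPM in KO and 277 CPM in WT leukaemia stefin-high cells. Penk, Eya1, Mecom and Hoxa9 had 0 UMIs in the c-Kit+ stefin-high cells of both libraries, where 3 counts would be 41.8 CPM in KO and 41.2 CPM in WT, and Meis1 and Pbx3 had at most 1 UMI each. In leukaemia stefin-high cells, by contrast, Retnlg was low, and Meis1, Hoxa9, Mecom and Pbx3 lay above those limits. The c-Kit+ cells are few, and their values rest on 72900 UMIs in KO and 73934 UMIs in WT. These libraries bear a c-Kit+ label, and sorting of the leukaemia cells was not given. Leukaemia and cell selection therefore cannot be told apart in this comparison.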

How the data were processed

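Each of 4 droplet libraries was deposited by the authors as a matrix of UMI counts, not normalized, made with Cell Ranger 7.1.0 and mm10 per the submitters' processing notes; the annotation is not given in the sources used here. Gene positions are from GENCODE M21, which held 52000 of the 56941 feature IDs, and promoters from RefSeq. Cells needed at least 500 genes and 1000 UMIs, with mitochondrial UMIs at or under 10%. Doublets called by Scrublet (scanpy 1.11.5, expected rate 0.08) were removed only in an alternative. UMIs were summed per group of cells and scaled to CPM without the 6 stefin genes. Log2 ratios add 1 CPM, and "2-fold" refers to them. Ratios of CPM have exact conditional binomial intervals and shares exact Clopper-Pearson intervals at 95%. Libraries were clustered one by one on 2000 variable genes (30 principal components, 15 neighbours, Leiden resolution 0.6, igraph 0.11.9). Steps were tested on simulated counts. Alternatives covered the stefin threshold, cell filter, doublets, depth, scaling, pseudocount, floor and clustering.

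Named genes are, by rule, the stefin, cystatin and cathepsin genes, Rbm5, Rbm6, Rbm10, Myc, Meis1, Hoxa9, Hoxa10, Mecom, Mef2c, Pbx3 and genes ranked at 50 CPM or more: the 15 highest and 15 lowest for stefin-high over other cells in both libraries, 12 for KO over WT and 10 for the difference, in each direction. One gene that the rule names is not reported here. List members are given with the count over their list. The members and lists were chosen with earlier results of these data known.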

Additional observations from a re-analysis of the deposited data

Results flagged for a closer look

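For 10 named genes the KO over WT ratio differed between stefin-high and other cells by 2-fold or more and the ratio of stefin-high over other cells pointed one way in KO and the other way in WT. With 1 library per group the difference was not tested. On the log2 scale, stefin-high minus other cells, it was 5.88 for Pcdh7, 2.5 for Pbx3, 1.72 for Zc3h12c, 1.55 for Epha7, 1.39 for Clec2i, 1.36 for Zeb2, 1.34 for Hspa2, 1.32 for Hspa1b and 1.25 for Pde7b. It was -1.12 for Skida1. Over 11 alternatives it lay between 5.29 and 6.66 for Pcdh7 and between 2.37 and 2.66 for Pbx3. Matching over clusters was not among these alternatives, so the ranges do not cover it. Under that setting the Pbx3 log2 ratio of stefin-high over other KO cells was 0.90, against 2.35 over all cells. Direction was read from the sign alone, and for Zeb2 the ratio of stefin-high over other KO cells was only 1.02 (0.998 to 1.05).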

How the results depend on the processing

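No paired analysis was possible because each group has 1 library; for the same reason no replicate could be left out. Over 1687 alternative values of 143 named gene ratios, 1602 moved by less than the step set for them, 80 moved by more and 5 reversed. A change of sign was counted as a reversal only where the ratio as analysed was 2-fold or more. Smaller ratios of stefin-high over other cells changed sign without being counted. Among them were Hoxa9 in KO (log2 0.25 as analysed, lowest -0.04) and Myc in KO (-0.26 as analysed, highest 0.28). The 5 reversals arose when cells were matched over clusters: Cd74 had 0.0080 in KO and 0.0015 in WT, Ifi30 0.73 in KO and 0.39 in WT, and Ctss 0.15 in KO. That setting, chosen after seeing the data, gave 63 higher and 77 lower genes in KO, 35 and 98 in WT and 12 and 30 in both. The causes of the other moves were not tested.

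The share of stefin-high cells was 9.31% in KO and 13.5% in WT at a threshold of 0.5%, and 4.83% in KO and 8.51% in WT at 2% (ratio 0.568). It was 6.45% in KO and 10.2% in WT over all barcodes, 11.97% in WT under a stricter cell filter and 11.9% in WT after thinning. Stefin UMIs over all barcodes were 0.286% in KO and 0.551% in WT, and their ratio was 0.687 with size factors.

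Genes past 2-fold numbered, with a floor of 25 CPM, 40 higher and 112 lower in KO, 41 and 176 in WT, 14 and 75 in both, 312 and 272 for KO over WT and 32 and 14 for the difference. With no floor they were 183 and 780 in KO, 1063 lower in WT, 520 lower in both, 910 and 1337 for KO over WT and 381 and 142 for the difference. A pseudocount of 5 CPM gave 62 higher in KO, 47 in WT, 18 in both, 380 lower for KO over WT and 59 and 21 for the difference. Size factors gave 380 lower for KO over WT and 52 lower for the difference, thinning 333 and 116 for the difference, and equal weight per cell 171 higher.

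Of 319 list medians, over genes above the floor, 13 moved. The monocyte median in WT, -1.82 as analysed, was -2.57 without called doublets, -2.49 thinned, -2.52 with equal weight and -2.47 at 25 CPM, where that for KO over WT was 1.94, against -0.16. The class II median, -2.87 in KO and -3.07 in WT as analysed, was in KO -3.47 without doublets, -2.12 with a pseudocount of 5 CPM and -3.49 with equal weight. In WT it was -3.84 without doublets, -4.14 thinned and -3.97 with equal weight, and for KO over WT -0.71 thinned, against -1.31. The immediate early median of KO over WT, 4.23 as analysed, was 3.5 with a pseudocount of 5 CPM.

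The cluster with most stefin-high cells held 43.2% of them in KO and 27.7% in WT at resolution 1.0, 40.2% in WT at 0.3, and 82.5% in KO and 38.05% in WT with the stefin genes kept. The highest share of stefin-high cells in a cluster was 37.7% in KO and 20.2% in WT at 0.3, 63.8% and 36.3% at 1.0, and 52.1% and 90.1% with the stefin genes kept. Depth limits the genes near the floor, and the 26 and 33 c-Kit+ cells most.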
